A study of Mus musculus with 48 samples.

Results

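The genes described here are 40 markers of macrophages and other antigen-presenting cells, read in RNA from whole mouse skin. They were picked by symbol alone, and all 40 of the named symbols were present among the 46983 genes of the deposited tables. Their values are FPKM, the fragments per kilobase of transcript scaled to a fixed number of mapped fragments, a level that takes transcript length into account and can therefore be compared between genes. All 40 passed the filter on low values, which asked for at least 0.5 FPKM in at least 2 libraries, and 21257 genes of the skin table and 19299 genes of the ear table did so. By role the set held 13 macrophage receptors and surface markers, 8 general leukocyte and myeloid genes, 5 Fc receptors and signalling adaptors, 4 lysosomal and antimicrobial effectors, 4 genes of major histocompatibility complex (MHC) class II, 3 chains of complement C1q, 2 myeloid transcription factors and 1 Langerhans cell lectin.

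The libraries came from microdissected whole skin of C57BL/6 mice, with no allele or treatment named in the labels, from the chin, the ventral trunk and the dorsal trunk at 6 labelled stages of the hair cycle. The cycle was followed from competent telogen through early, mid and late anagen and then catagen to refractory telogen, where telogen is the resting phase, anagen the growing phase and catagen the regressing phase of the follicle. The 18 groups held 2 or 3 libraries each, 43 in all. A second table held 2 libraries of ear skin in telogen, 3 of the ear cartilage/muscle complex and the same 2 dorsal competent telogen libraries with identical values, so that 48 libraries were distinct. Neither age nor sex was given in the labels used, and the labels do not say whether replicates came from separate animals, so that p-values measure the spread between these samples, which may be technical.

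Macrophages and dendritic cells derive from bone marrow or from embryonic precursors, engulf particles and dying cells, and display peptides from them on MHC class II molecules to T cells. In skin, macrophages lie in the dermis around vessels, nerves and follicles, and Langerhans cells, which carry the lectin Cd207 (langerin), form a network in the epidermis and the follicle mouth. Dermal macrophages are known to release factors that act on resting follicles, and their number around the follicle is known to vary over the hair cycle.

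Several properties of the libraries touch the results. Depth was estimated from the step size between low values of 10568 single-transcript genes and is approximate: it ran from 6560000 to 27000000 fragments per library, with a median of 12500000. Keratin and keratin-associated protein genes made up between 2.62% and 20.2% of all FPKM, and 14 inner root sheath and hair shaft genes, a list added after seeing the data, summed to at least 5026 FPKM in every skin library, those labelled telogen included. A list of 10 cell cycle genes summed to 427 to 464 FPKM in chin, 455 to 535 in ventral and 224 to 229 in dorsal libraries labelled competent telogen, against 80.9 to 105 in those of refractory telogen. Resting follicles are not known for such transcripts, so the labels of some groups, those of competent telogen above all, may not match the state of the follicles, and stage names here are those of the labels. Chin late anagen and dorsal competent telogen could hardly be told apart, with 0.00941% of all genes called between them. Their keratin shares were 17.2% to 17.4% and 17.1% to 17.3%. These groups carry different site and stage labels, so that a site label may be off as well, which was not tested. Site names here are also those of the labels. The 2 dorsal catagen libraries had the lowest correlation of expression with GC content of all 43 (Spearman -0.42 and -0.41). One ventral catagen library carries an ear location in 1 of its labels and was kept as ventral, as its title and source name say. The median difference of all genes lay between -0.09 and 0.25 on the log2 scale among body sites within a stage. It was 0.33 for ear skin and 0.24 for the cartilage/muscle complex against dorsal skin. Scaling by the median of ratios takes such shifts out, and it moved counts in both tables. Under it, members higher in ear than in dorsal skin went from 35 to 30. Those higher in ventral than in dorsal competent telogen went from 20 to 8. How far any of these properties contributed to the differences given next was not tested.

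The most abundant members belonged to antigen presentation and to the lysosome. Cd74, the invariant chain that escorts class II molecules, averaged 292 FPKM over the 43 skin libraries. H2-Ab1 and H2-Aa, which encode the beta and alpha chains of the class II molecule I-A, averaged 235 and 161 FPKM, H2-Eb1, the beta chain of I-E, averaged 103 FPKM, and Lyz2, the lysozyme of macrophages and granulocytes, averaged 121 FPKM. Fcer1g and Tyrobp, adaptors that carry the signalling motifs for Fc and other activating receptors, averaged 53.6 and 39.4 FPKM. C1qb, C1qa and C1qc averaged 38.3, 32.1 and 24.4 FPKM. Cell surface receptors lay lower, with Cd68 at 13.3, Folr2 at 11.2, Clec10a at 10.4, Csf1r at 5.76 and Adgre1 (F4/80) at 3.16 FPKM, and Cd207 averaged 4.89 FPKM. Msr1, Itgax, Cx3cr1, Itgam, Trem2 and Fcgr1 averaged under 1 FPKM, so that their differences rest on few fragments.

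The identity of some members is less certain than that of others. Lyz1 and Lyz2 lie side by side on chromosome 10 and are near copies of each other, as are Fcgr2b and Fcgr3 in part, and reads can be split between such copies. The library protocol does not mark strand, so reads of Csf1r, Folr2, Cx3cr1, Cd52 and Fcgr2b cannot be told apart from those of the genes that overlap them on the opposite strand. Itgam has 2 entries in the tables, and only the first passed the filter.

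By the group mean of log2 values, refractory telogen of the chin held the peak of 35 of the 40 members. The exceptions were Msr1, Mertk, Cx3cr1, Trem2 and Fcgr1, of which all but Mertk lay under 1 FPKM on average. By mean FPKM, Msr1 was also highest there, at 0.777 against 0.765 in dorsal early anagen. The lowest group was most often dorsal mid anagen, for 15 members. In ventral skin the highest stage mean was at competent telogen for 30 members and at refractory telogen for 9. In dorsal skin it was at competent telogen for 24 and at early anagen for 13. The ventral order of the 2 telogen labels is weak. Between them 9 members were called higher at competent telogen and 1 lower (34.5% and 8.12% of all genes). Those counts were 4 and 3 under scaling by the median of ratios. Across the 43 libraries, 33 members correlated with the mean of the other members at Pearson r of 0.8 or more on the log2 scale, and 2 fell under 0.5, which were Mertk at 0.02 and Cx3cr1 at 0.16. These correlations describe libraries that share body sites, stages and processing. The plot of all members over all groups shows the shared maximum.

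**Figure D1:**
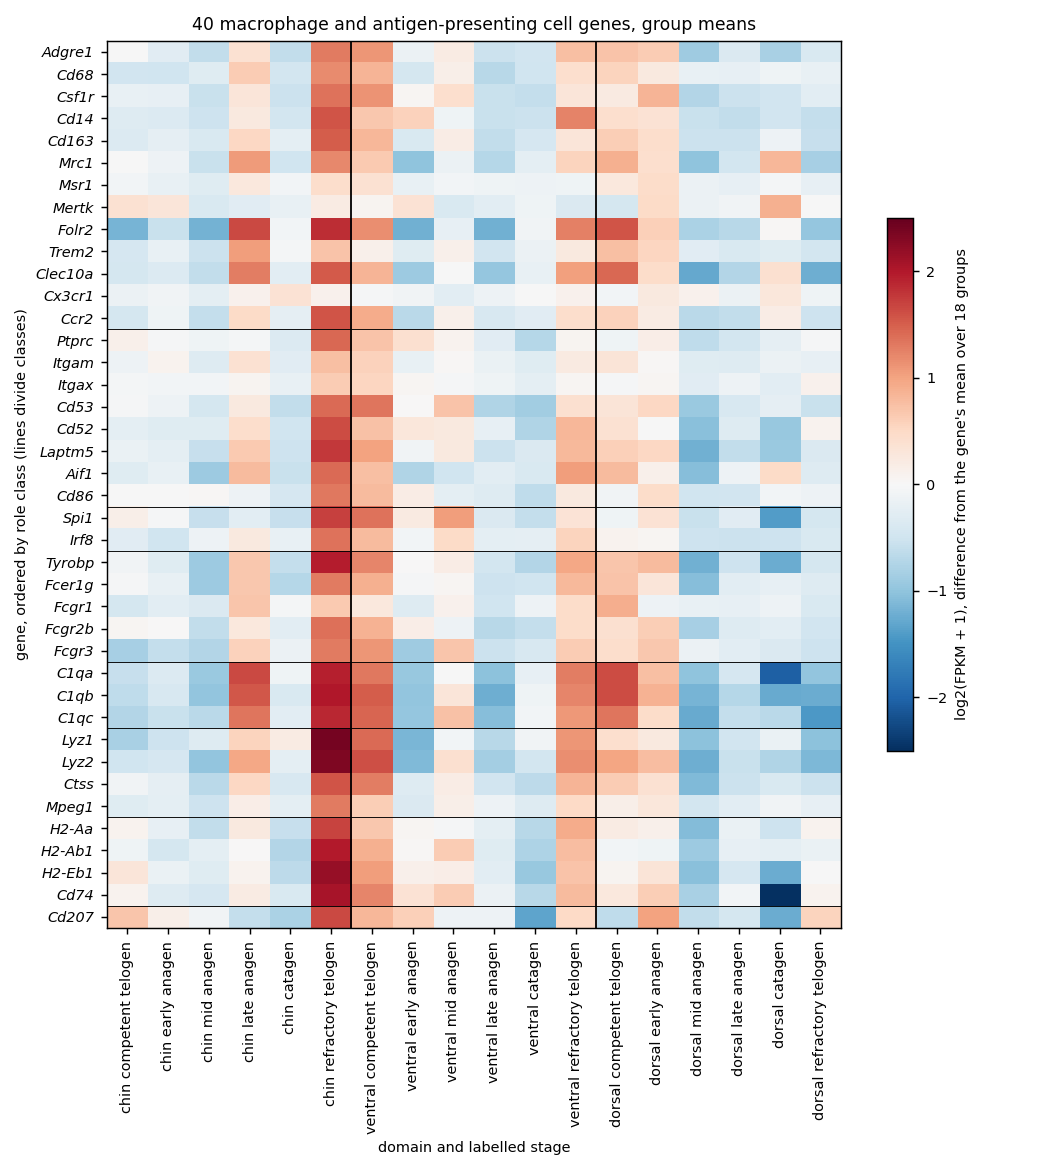
Heat map of the 40 members (horizontal lines, grouped by role) over the 18 body site and stage groups (columns), coloured by the group mean of log2(FPKM + 1) after subtracting each member's mean over the groups. The column of chin refractory telogen is the highest for 35 members, and ventral and dorsal skin are high at competent telogen.

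Genes outside the set were ranked by their correlation with the members, so that the likeness of those named follows from the ranking. The 10 genes whose log2 values correlated most with the mean of the members over the 43 libraries were Mgl2 (r = 0.968), Fcrls (0.962), Rac2 (0.96), Clec4a3 (0.959), Hexa (0.955), Cfp (0.953), Pf4 (0.946), Cybb (0.943), Cyth4 (0.942) and C1ra (0.942). Mgl2 and Clec4a3 are lectins of myeloid cells, Rac2 and Cybb are parts of the phagocyte oxidase system, and Cfp and C1ra act in complement.

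At refractory telogen 39 of the 40 members differed among the 3 body sites by the limma F-test with Benjamini-Hochberg adjustment over all genes, where 42.2% of all genes were called. Chin skin exceeded dorsal skin for 37 members and fell below it for none, against 27.2% and 7.61% of all genes higher and lower. The median difference of the 40 members was 1.84 on the log2 scale, and that of all genes was 0.14. Ventral skin exceeded dorsal skin for 31 members and fell below it for none (8.1% and 5.57% of all genes), with a median of 0.93. Chin skin exceeded ventral skin for 33 members and fell below it for none (24.7% and 6.06% of all genes), with a median of 0.78. In bulk RNA, fewer cells of a type and less RNA per cell cannot be told apart. When only the libraries of refractory telogen entered the fit, the counts fell to 11 for ventral above dorsal and to 12 for chin above ventral. Without dorsal refractory telogen replicate 2, 21 members were higher in ventral than in dorsal skin. Under scaling by the median of ratios, 22 were higher in chin than in ventral skin.

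Lysosomal and complement members differed most. Lyz2 stood at 532, 303 and 538 FPKM in chin, at 195 and 194 in ventral and at 38.9 and 39.4 in dorsal refractory telogen, so that the groups did not overlap and dorsal skin was far below both others. Its chin minus dorsal difference was 3.47 ± 0.22 (log2, SE; limma adjusted p = 1.68e-12), and Lyz1 followed at 3.41 ± 0.22 (adjusted p = 2.5e-12). C1qb was measured at 137, 79.3 and 129 FPKM in chin, 66.9 and 63.6 in ventral and 11.1 and 10.9 in dorsal skin, again without overlap. C1qb exceeded dorsal levels by 3.24 ± 0.23 in chin and by 2.46 ± 0.25 in ventral skin (adjusted p = 8.47e-12 and 2.43e-08), and C1qc by 3.33 ± 0.25 and 2.54 ± 0.28 (adjusted p = 4.35e-11 and 1.15e-07). C1qa stood at 114, 64.5 and 105 FPKM in chin and at 9.84 and 12.5 in dorsal skin. The second chin replicate was the lowest of the 3 for each of these genes, yet it lay above every ventral and dorsal library of that stage for Lyz2 and C1qb. Ctss, the cysteine protease that trims the invariant chain, was at 69.5, 34.5 and 70.9 FPKM in chin against 13.2 and 10.8 in dorsal skin, and Mpeg1, a pore-forming protein of the phagosome, at 5.06, 1.98 and 4.36 against 0.5 and 0.73 FPKM.

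C1q binds immune complexes and dying cells and starts the classical complement pathway, and its chains are made largely by macrophages. The 3 genes lie next to each other on chromosome 4, in the order C1qb, C1qc and C1qa, and are transcribed from the minus strand. PU.1, the product of the member Spi1, binds purine-rich sites with the core GAGGAA. The stretch before the start of C1qb and C1qc is shown because these members were among those with the largest differences and hold that core, here in capitals, read on the minus strand from RefSeq on GRCm38.p6 (C1qb at chr4:136886201-136886350, C1qc at chr4:136892915-136893114).
C1qb: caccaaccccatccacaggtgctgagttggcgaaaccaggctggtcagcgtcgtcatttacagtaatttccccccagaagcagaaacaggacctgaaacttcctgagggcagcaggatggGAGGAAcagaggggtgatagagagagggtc
C1qc: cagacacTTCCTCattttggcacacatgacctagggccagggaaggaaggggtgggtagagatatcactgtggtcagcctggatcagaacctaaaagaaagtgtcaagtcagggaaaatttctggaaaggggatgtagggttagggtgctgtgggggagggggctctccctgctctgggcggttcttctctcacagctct
The C1qb window holds the core on the strand of the gene, and the C1qc window holds it on the other strand as TTCCTC. Of the 40 members, 28 had an entry in the promoter table, and 14 of the 28 held GAGGAA on either strand within the 250 bases before the start, against 25.9% of 27025 genes. A match to these letters is a description of the window. Members with no entry were Adgre1, Csf1r, Cd14, Msr1, Clec10a, Cd52, Cd86, Spi1, Tyrobp, C1qa, H2-Ab1 and Cd74.

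MHC class II genes shared the chin maximum at refractory telogen. H2-Ab1 was at 1003.5, 472 and 978 FPKM in chin, at 362 and 310.3 in ventral and at 175 and 173 in dorsal skin, and the 3 sites did not overlap. H2-Aa read 601, 260 and 598 FPKM in chin against 147 and 151 in dorsal skin, and H2-Eb1 read 486, 229 and 474 FPKM against 78.5 and 84.4. H2-Eb1 also had the largest chin excess over ventral skin of all members, 1.47 ± 0.19 (log2, SE; limma adjusted p = 9.03e-07). Cd74 was uneven between replicates, with 1309.5, 443 and 1271 FPKM in chin, 227 and 624 in ventral and 238 and 223 in dorsal skin, and ventral and dorsal libraries overlapped. All 4 class II genes were called higher in chin than in dorsal skin, with a median of 2.06, and 3 of the 4, without Cd74, in ventral than in dorsal skin, with a median of 0.78.

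Class II promoters carry a conserved module of an X box and a Y box, which recruits the transactivator CIITA. The stretches before H2-Aa (chr17:34287824-34287973, minus strand) and H2-Eb1 (chr17:34305717-34305866, plus strand) of RefSeq on GRCm38.p6 are shown because these genes moved together, with the Y box core GATTGG or its complement CCAATC and, in H2-Eb1, the X box in capitals.
H2-Aa: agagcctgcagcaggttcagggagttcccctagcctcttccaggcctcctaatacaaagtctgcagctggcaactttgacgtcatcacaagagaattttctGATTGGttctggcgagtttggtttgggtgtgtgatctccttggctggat
H2-Eb1: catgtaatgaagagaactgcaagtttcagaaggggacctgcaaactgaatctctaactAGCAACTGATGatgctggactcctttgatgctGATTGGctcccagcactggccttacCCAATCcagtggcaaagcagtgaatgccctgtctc
The X box was searched in 1 form only, AGCAACTGATG with any base allowed at the seventh position, on both strands. That form was present in 1 of the 28 members with an entry, H2-Eb1, and in 0.0703% of all genes. Such a search does not show that the other windows, that of H2-Aa included, lack an X box. GATTGG on either strand was present in 8 of the 28 members and in 16.6% of genes.

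The remaining roles moved the same way between chin and dorsal refractory telogen. Of the 13 macrophage receptors and surface markers 11 were higher, with a median of 1.68. Csf1r, the receptor for the growth factor of macrophages, was at 16.2, 11.8 and 15.9 FPKM in chin and at 3.9 and 4.09 in dorsal skin. Adgre1 was at 10.1, 4.13 and 11.8 against 2.02 and 1.61 FPKM, and Cd68, a lysosomal glycoprotein, at 35.3, 19.9 and 34.4 against 9.89 and 11.1. The scavenger receptor Cd163, the mannose receptor Mrc1, the folate receptor Folr2, the lectin Clec10a, the endotoxin co-receptor Cd14, the lipid receptor Trem2, the scavenger receptor Msr1 and the chemokine receptor Ccr2 were called higher as well. Mertk, a receptor for the uptake of dying cells, was at 3.4, 2.75 and 3.49 FPKM in chin and at 2.58 and 2.64 in dorsal skin, a difference of 0.22 that did not pass the test. Cx3cr1, the fractalkine receptor, did not pass either, with 0.74, 0.4 and 0.81 FPKM against 0.5 and 0.35.

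Leukocyte genes in general were higher in chin in 7 of 8 cases, with a median of 1.51. Laptm5, a lysosomal membrane protein of blood cells, rose from 7.98 and 7.31 FPKM in dorsal to 43.4, 27.3 and 42.0 in chin skin, and Cd52, a small surface glycoprotein, from 26.6 and 28.2 to 97.9, 50.7 and 108 FPKM. Cd53, Ptprc (CD45, the common leukocyte phosphatase), the calcium-binding protein Aif1, the costimulator Cd86 and Itgam (CD11b, at 1.72, 0.98 and 1.99 against 0.33 and 0.29 FPKM) were the other 5. Itgax (CD11c) was the exception at 1, 0.95 and 1.24 against 0.43 and 0.43 FPKM, with a difference of 0.53 that missed the threshold. Both transcription factors were higher, Spi1 (PU.1) at 14.2, 10.5 and 16.4 against 2.4 and 2.16 FPKM and Irf8 at 5.14, 4.37 and 5.82 against 0.97 and 0.68 FPKM. All 5 Fc receptors and adaptors were higher, with a median of 1.82: Fcer1g at 146, 79.5 and 147 against 34.5 and 41.4 FPKM, Tyrobp at 147, 89.2 and 146 against 22.2 and 23.5, and Fcgr1, Fcgr2b and Fcgr3, the receptors for immunoglobulin G. Cd207 was at 14.5, 13.1 and 16.0 FPKM in chin, at 5.16 and 6.84 in ventral and at 5.98 and 6.6 in dorsal skin, so that ventral and dorsal skin overlapped while chin lay above both.

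**Figure D2:**
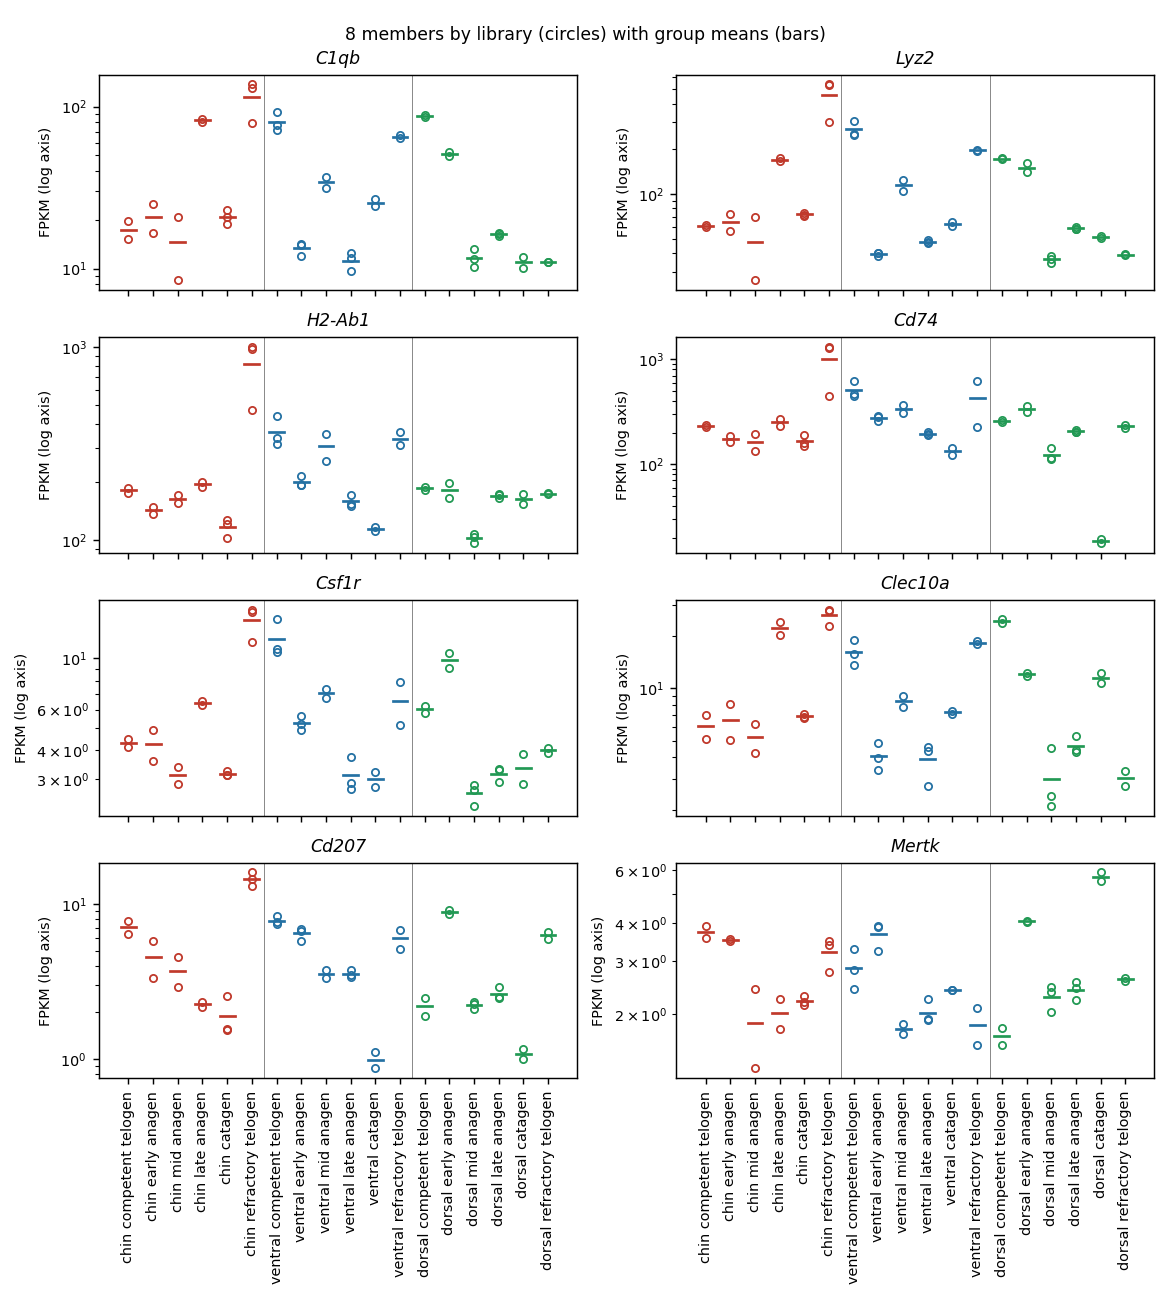
FPKM (log axis) of 8 members in each of the 43 skin libraries, 1 panel per member. Libraries are ordered by body site and then by stage in cycle order and coloured by body site, with a short bar at each group mean. Lyz2 lies between 303 and 538 FPKM in chin refractory telogen and between 38.9 and 39.4 in dorsal refractory telogen, while Mertk keeps within 1.32 to 5.91 FPKM throughout.

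Over the cycle, chin skin changed little in these genes until late anagen. All 40 members differed among the 6 stages in chin skin by the limma F-test (66.2% of all genes), but from competent telogen to early anagen none was called in either direction (1.26% of all genes higher, 0.875% lower), and at an unadjusted p under 0.05 limma gave 1 higher and 2 lower. From early to mid anagen 3 members fell, Fcer1g, Mertk and Fcgr2b, and none rose (3.66% higher, 14.5% lower), and after rescaling to TPM, in which each library sums to the same total, 16 fell. From mid to late anagen 29 members rose and 1, Cd207, fell (7.42% higher, 12.3% lower). Folr2 went from 4.95 and 1.81 to 29.1 and 26.9 FPKM, a rise of 2.83 ± 0.24 (log2, SE; limma adjusted p = 1.04e-09), and C1qa from 18.1 and 7.4 to 82.4 and 66.8 FPKM, a rise of 2.57 ± 0.26 (adjusted p = 3.8e-08). Each late anagen library was above both mid anagen libraries for these genes, and the ratio between the 2 mid anagen libraries was larger than that between the late anagen ones.

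From late anagen to catagen 26 members fell in chin skin and none rose (4.19% of all genes lower, 8.92% higher). C1qb fell by 1.93 on the log2 scale (limma adjusted p = 7.92e-07), from 84.1 and 80.4 to 18.9, 22.9 and 20.9 FPKM, and C1qa fell by 1.75 (adjusted p = 1.03e-05). From catagen to refractory telogen 39 members rose and none fell (30.5% higher, 17.5% lower), with Cx3cr1 the exception. H2-Eb1 rose most, by 2.83 ± 0.17 (adjusted p = 1.51e-13) from 47.5, 55.6 and 53.0 to 486, 229 and 474 FPKM, and H2-Ab1 rose by 2.72 ± 0.17 (adjusted p = 3.4e-13). These SE rest on the spread pooled over all 18 groups. The mean log2 level of class II genes had an SD of 0.7 in chin refractory telogen, so that the SE may be too small there. Competent telogen was lower than refractory telogen for 38 members and higher for none (17.8% and 18.4% of all genes), led by Lyz1 with -3.19 ± 0.22 and Folr2 with -3.01 ± 0.22 (adjusted p = 2.28e-12 and 3.7e-12), and Cx3cr1 and Mertk were the 2 not called.

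In ventral skin 39 members differed among the stages (70.2% of all genes), and the course was another. Early anagen was below competent telogen for 31 members and above it for 1, Mertk (29.3% lower, 13.2% higher). Lyz2 fell by 2.73 (limma adjusted p = 5.46e-12), from 308, 247 and 252 to 38.2, 40.2 and 40.3 FPKM, and Lyz1 fell by 2.57 (adjusted p = 2.16e-11). The groups were separated by a wide gap, and ventral early anagen had the lowest group mean of Mrc1, Folr2, Fcgr3 and Lyz1 of the 18 groups, though not in each case the lowest single library. Mertk rose by 0.29 ± 0.11 (adjusted p = 0.0325). From early to mid anagen 20 members rose and 3, Mertk, Cd207 and Cd14, fell (16.7% higher, 25.6% lower), led by C1qc with 1.72 ± 0.25 and Fcgr3 with 1.57 ± 0.2 (adjusted p = 2.74e-06 and 1.73e-07), and 12 rose without ventral mid anagen replicate 1.

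From mid to late anagen 23 members fell in ventral skin and none rose (11.6% lower, 12.6% higher), the reverse of the same step in chin skin. C1qc fell from 35.1 and 27.4 to 8.24, 7.77 and 8.46 FPKM and C1qb from 37.0 and 31.3 to 9.66, 11.6 and 12.4, by 1.81 and 1.53 on the log2 scale (limma adjusted p = 5.52e-06 and 1.11e-05). From late anagen to catagen 5 rose (2.83% of all genes) and 2 fell (3.1%): the 3 C1q chains, Folr2 and Clec10a were higher, by 1.12 ± 0.23 for C1qb and 1.11 ± 0.22 for Folr2, and Cd207 and H2-Eb1 fell by 1.19 and 0.68. From catagen to refractory telogen 34 rose and none fell (14.9% higher, 18.8% lower), led by Cd207 with 1.81 ± 0.17 (adjusted p = 4.65e-09), from 1.11 and 0.87 to 5.16 and 6.84 FPKM, and Cd14 with 1.77 ± 0.22 (adjusted p = 3.2e-07). Between the 2 telogen labels 9 members were higher at competent telogen and 1, Cd14, was lower (34.5% and 8.12% of all genes), with Spi1 at 1.02 ± 0.22 and Cd53 at 0.94 ± 0.19 the largest, and the number higher ran from 4 under scaling by the median of ratios to 22 after rescaling to TPM.

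In dorsal skin 39 members differed among the stages (68.5% of all genes), and 23 without the competent telogen and early anagen libraries, a setting chosen after seeing the data. From competent telogen to early anagen 3 rose and 6 fell (35.2% higher, 8.23% lower). Cd207 rose by 1.63 ± 0.17 (limma adjusted p = 1.6e-08), from 2.49 and 1.9 to 8.57 and 9.15 FPKM, Mertk by 0.92 ± 0.13 and Csf1r by 0.63 ± 0.16, while Fcgr1 fell by 1.04, Clec10a and Folr2 by 0.97 each and the 3 C1q chains by 0.76 to 0.87. Under the median of ratios 17 members fell at this step. From early to mid anagen 36 fell and none rose (30.1% lower, 9.08% higher), and each of the 8 roles took part. C1qb fell by 2.04 on the log2 scale (adjusted p = 2.7e-08), from 52.7 and 49.4 to 11.52, 13.3 and 10.3 FPKM, and Lyz2 by 2.0 (adjusted p = 2.68e-08), from 159 and 139.8 to 38.3, 37.0 and 34.5 FPKM.

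From mid to late anagen 6 members rose in dorsal skin and none fell (1.15% higher, 1.53% lower), which were H2-Aa (0.92 ± 0.17, limma adjusted p = 0.00105), Fcer1g (0.79 ± 0.16, adjusted p = 0.00261), H2-Ab1, H2-Eb1, Cd52 and Laptm5. From late anagen to catagen 7 rose and 7 fell (20% and 18.7% of all genes), both near the shares of all genes. Mrc1, Clec10a, Mertk, Ccr2, Folr2, Cx3cr1 and Cd163 rose by 0.41 to 1.29, and Cd74, C1qa, Spi1, Cd207, H2-Eb1, Tyrobp and Cd52 fell. From catagen to refractory telogen 9 rose and 8 fell (19.1% and 24.5%), again near the shares of all genes. Cd74 was up by 3.56 ± 0.34 and Cd207 by 1.81 ± 0.17 (limma adjusted p = 1.34e-09 and 1.33e-09), and Mrc1 and Clec10a were down by 1.66 and 1.62. Both steps rest on the 2 dorsal catagen libraries, which had the lowest correlation of expression with GC content (Spearman -0.42 and -0.41). With the GC content trend removed, 7 rose and 6 fell into catagen, and 6 rose and 8 fell after it. The part of GC content in these differences was not tested. Competent telogen exceeded refractory telogen for 26 members and lay below it for Cd207 and Mertk (11.3% higher, 10.8% lower), led by C1qb with 2.88 ± 0.25 and C1qc with 2.78 ± 0.28 (adjusted p = 1.21e-09 and 1.95e-08). Between these stages C1qb stood at 86.1 and 88.5 against 11.1 and 10.9 FPKM, whereas H2-Ab1 stood at 189 and 183 against 175 and 173 FPKM.

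The courses of the body sites differed for nearly every member. The interaction of site and stage was called for 39 of the 40 (73.3% of all genes), so that a single stage profile cannot stand for all 3 sites. By the same F-test, the step from competent telogen to early anagen differed among sites for 32 members (54% of all genes), that to mid anagen for 34 (37.7%), that to late anagen for 34 (26.6%), that to catagen for 27 (37.5%) and that to refractory telogen for 37 (45.4%). The difference between the 2 telogen stages differed among sites for 39 members (49.1% of all genes).

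At competent telogen 39 members differed among the sites (54% of all genes). Most members were lowest in chin skin. Chin was below ventral skin for 35 members and above it for none (15.5% lower, 7.44% higher), led by Folr2 with -2.33 ± 0.22 and Lyz1 with -2.22 ± 0.22 (limma adjusted p = 8.72e-09 and 2.92e-08). Chin was below dorsal skin for 23 and above it for 2, Cd207 and Mertk (9.29% lower, 27.4% higher). Folr2 was at 2.73 and 3.57 FPKM in chin against 24.7 and 28.3 in dorsal skin, a difference of -2.73 ± 0.24 (adjusted p = 3.46e-10), and C1qb was at 19.6 and 15.3 against 86.1 and 88.5 FPKM, a difference of -2.27 ± 0.25 (adjusted p = 2.9e-08). No class II gene was called between these groups, H2-Ab1 lying at 176 and 186 FPKM in chin and at 189 and 183 in dorsal skin, and Cd207 stood at 7.75 and 6.36 against 2.49 and 1.9 FPKM (1.33 ± 0.17, adjusted p = 6.73e-07). Ventral skin exceeded dorsal skin for 20 members and lay below it for 3, Fcgr1, Trem2 and Clec10a (38% higher, 9.88% lower), with Cd207 at 1.47 ± 0.16 and Spi1 at 1.45 ± 0.22 the largest. Those counts were 8 and 7 under the median of ratios, and 13 were higher and 1 lower without dorsal competent telogen replicate 1.

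Early anagen showed dorsal skin above both other sites. In all 26 members differed (51.6% of all genes), chin was below dorsal skin for 25 (16.7% of all genes lower, 10.3% higher) and ventral below dorsal for 23 (27.7% lower, 14% higher, 41.7% in either direction), and none was above. Lyz2 was at 56.6 and 72.9 FPKM in chin, at 38.2, 40.2 and 40.3 in ventral and at 159 and 139.8 in dorsal skin, so that the sites did not overlap, and its ventral minus dorsal difference was -1.89 ± 0.22 (limma adjusted p = 5.88e-08). C1qb had -1.85 ± 0.23 in the same comparison (adjusted p = 1.18e-07) and -1.28 ± 0.25 for chin minus dorsal (adjusted p = 0.000295), and Fcgr3 had -1.28 ± 0.21 there (adjusted p = 5.22e-05). Between chin and ventral skin the split was 7 higher and 5 lower, near the shares of all genes (19.8% and 13%). Mrc1 (0.88 ± 0.19) and Lyz2 (0.68 ± 0.22) were higher and Cd14 (-0.92 ± 0.2), Cd52 (-0.59 ± 0.22), Cd207, Irf8 and Ptprc lower in chin. The count of members lower in chin than in dorsal skin was 11 without dorsal early anagen replicate 1, 14 without replicate 2 and 13 without chin early anagen replicate 1, while between chin and ventral skin 2 were higher without chin early anagen replicate 2 and 1 was lower without ventral early anagen replicate 2.

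In mid anagen ventral skin stood out. Among the sites 30 members differed (38.1% of all genes), 29 were higher in ventral than in dorsal skin (12.1% of all genes) and none lower (16.1%), and 22 were lower in chin than in ventral skin (10.3%) and none higher (11.8%). C1qc read 35.1 and 27.4 FPKM in ventral against 6.7, 7.22 and 6.99 in dorsal skin, a difference of 2.01 ± 0.25 (limma adjusted p = 7.79e-07), and Cd53 read 12.0 and 13.1 against 3.91, 2.66 and 3.61 FPKM, a difference of 1.63 ± 0.19 (adjusted p = 1.83e-07). The largest deficits of chin against ventral skin were those of Spi1 (-1.61 ± 0.24, adjusted p = 2.25e-05) and Fcgr3 (-1.42 ± 0.21, adjusted p = 2.33e-05). Chin against dorsal skin gave 8 higher and 1, Fcgr3, lower (7.17% and 10%), led by H2-Eb1 (0.75 ± 0.19) and Cd52 (0.73 ± 0.22). The chin libraries were uneven, C1qc reading 17.7 and 6.8 FPKM in them, and 17 members differed among sites when only mid anagen libraries were fitted. In that fit, and likewise without chin mid anagen replicate 2, 8 members were lower in chin than in ventral skin, and 11 were without ventral mid anagen replicate 1. The count of 8 above dorsal skin fell to 3 without chin mid anagen replicate 1 and to 2 after rescaling to TPM.

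In late anagen the libraries labelled chin stood above those of the other sites. Among the sites 28 members differed (20.8% of all genes), and 28 were higher in chin than in dorsal skin (5.78% of all genes higher, 13.7% lower). Chin exceeded ventral skin for 27 and lay below it for 1, Cd207 (5.99% and 9.61%). Folr2 was at 29.1 and 26.9 FPKM in chin, 3.41, 3.34 and 2.41 in ventral and 4.72, 5.28 and 4.28 in dorsal skin, and C1qb was at 84.1 and 80.4, then 9.66, 11.6 and 12.4, then 16.7, 16.5 and 16.0 FPKM. The chin excess over dorsal skin was 2.33 ± 0.22 for Folr2 and 2.26 ± 0.23 for C1qb (limma adjusted p = 3.68e-09 and 1.64e-08), and over ventral skin 2.85 ± 0.22 and 2.77 ± 0.23 (adjusted p = 4.11e-10 and 1.23e-09). None of the 4 class II genes was called in either comparison, though their mean log2 level was also higher in chin without overlap, at 7.35 to 7.37 against 6.97 to 7.02 in ventral and 7.0 to 7.01 in dorsal skin. H2-Ab1 read 201 and 189.6 FPKM in chin against 173, 172 and 165 in dorsal skin, and whether class II genes differed less than the other members was not tested. Ventral and dorsal skin gave no call at all (1.47% and 1.67% of all genes), and at an unadjusted p under 0.05 limma gave 1 higher and 7 lower in ventral skin. When only the late anagen libraries were fitted, 1 was called higher and 7 lower. The chin late anagen libraries were close to dorsal competent telogen across these genes: no member was called between the 2 groups, at an unadjusted p under 0.05 limma likewise gave 0, and the median difference was 0.02. As these groups differ in site label too, the late anagen differences of chin skin rest on site labels taken as given.

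Catagen was the stage with the fewest differences, 12 members (42.9% of all genes). No member was called between chin and ventral catagen (2.96% and 2.23% of all genes), with 3 at an unadjusted p under 0.05 by limma, all higher in chin. Against dorsal skin, chin had 8 higher and 7 lower (20% and 21.3%) and ventral skin 5 higher and 6 lower (16.4% and 19%). These counts lay near or under the shares of all genes. Cd74 read 190, 149 and 159 FPKM in chin, 122 and 144 in ventral and 17.7 and 19.5 in dorsal catagen, the lowest values of Cd74 in the 43 libraries, and chin exceeded dorsal skin by 3.08 ± 0.31 (limma adjusted p = 4.11e-09). H2-Eb1 also had its lowest group mean in dorsal catagen, 34.1 FPKM. The mean log2 level of the 4 class II genes, Cd74 included, was 5.85 there, the lowest of the 18 groups. H2-Ab1, another gene of the same pathway, was not low in those 2 libraries, with 154 and 174 FPKM against 128, 103 and 121 in chin. C1qa was at 20.4, 21.4 and 22.3 FPKM in chin and 5.61 and 4.14 in dorsal catagen (1.94 ± 0.24, adjusted p = 1.45e-07), whereas C1qc was at 15.6, 13.2 and 15.9 against 10.3 and 11.7 FPKM and was not called. Mrc1 and Mertk were lower in chin by 1.33 ± 0.19 and 1.07 ± 0.12 in size, and lower in ventral skin by 1.07 ± 0.21 and 0.98 ± 0.13. Without dorsal catagen replicate 1 the number of members that differed was 7. Without either of the dorsal catagen libraries 4 members were higher and 3 lower in chin than in dorsal skin, and after the GC content trend of each library had been removed, a setting chosen after seeing the data, 4 were higher in chin and 2 in ventral skin.

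**Figure D3:**
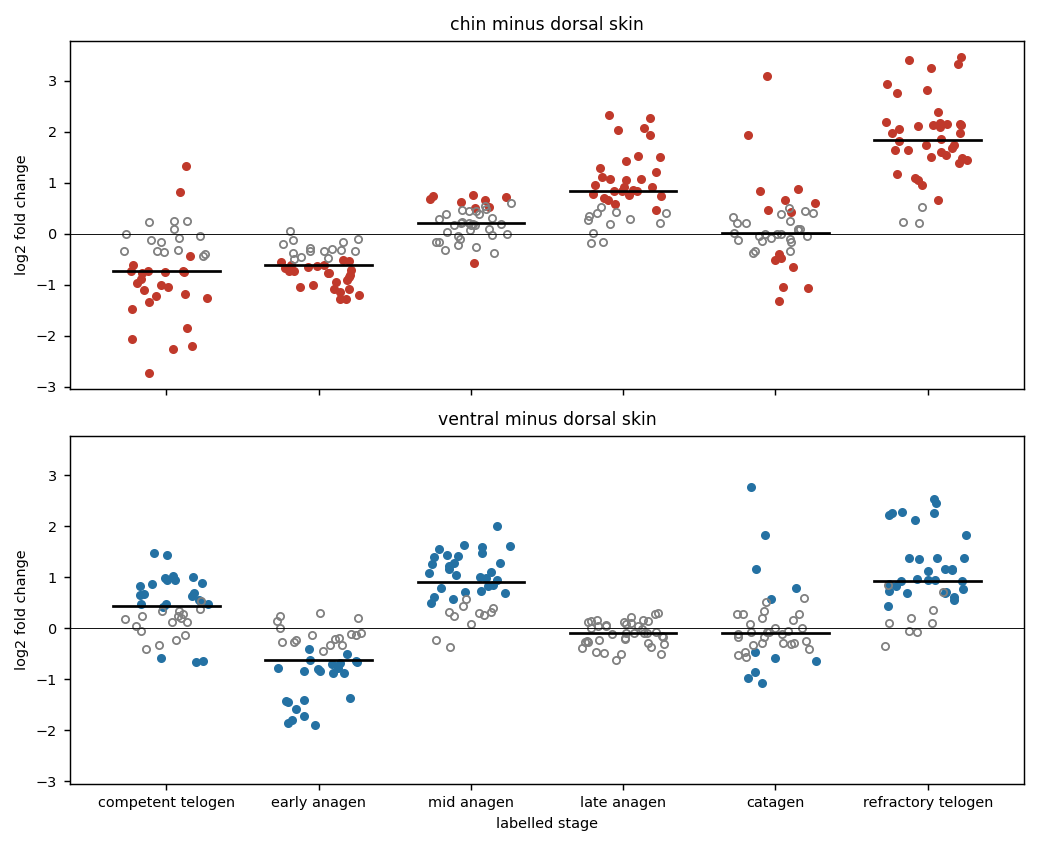
Difference of each of the 40 members (points) in chin minus dorsal and ventral minus dorsal skin, as log2(FPKM + 1), at each stage, with filled points for an adjusted p under 0.05 and a black bar at the median. The median of chin minus dorsal runs from -0.73 at competent telogen to 1.84 at refractory telogen, and that of ventral minus dorsal skin peaks at 0.91 in mid anagen and 0.93 in refractory telogen.

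The C1q chains and the class II genes are set side by side next. Over the 43 libraries, the mean log2 level of the 3 C1q genes correlated with that of the 4 class II genes at r = 0.76, with that of the lysosomal effectors at 0.93 and with Cd207 at 0.39, while class II genes correlated with Cd207 at 0.82 and with the 2 transcription factors at 0.93. In chin skin the mean log2 level of C1q was 3.91 ± 0.12 (SD, n = 2) at competent telogen and 6.07 ± 0.16 (n = 2) at late anagen, and that of class II genes was 7.31 ± 0.01 and 7.36 ± 0.02. In dorsal skin C1q stood at 6.09 ± 0.01 (n = 2) at competent telogen and at 3.33 ± 0.11 (n = 2) at refractory telogen, and class II genes at 7.34 with an SD under 0.01 and at 7.22 ± 0.01. At refractory telogen in chin skin both were at their highest, 6.5 ± 0.43 and 9.2 ± 0.7 (n = 3). Chin late anagen and dorsal competent telogen, the groups with high C1q in the chin and dorsal comparisons, hardly differed, with 0.00941% of all genes called between them. Their site labels may be off, so that these comparisons cannot be taken as separate examples. Whether the 2 classes of genes differed in their change was not tested.

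**Figure D4:**
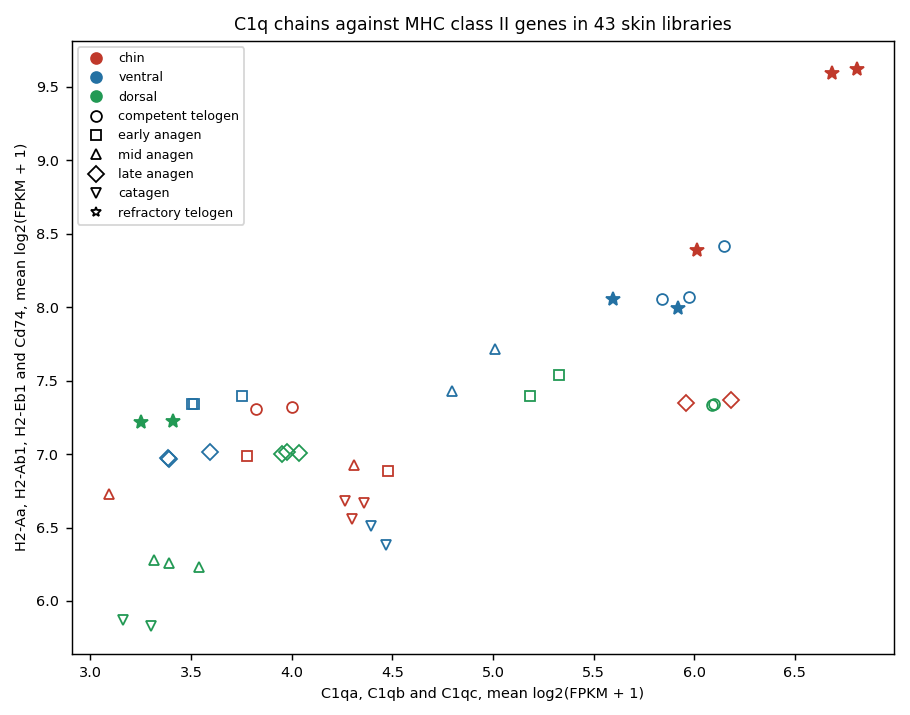
Mean log2(FPKM + 1) of the 3 C1q chains (horizontal axis) against that of the 4 class II genes (vertical axis) in each of the 43 skin libraries, coloured by body site and with 1 symbol per stage. Chin competent telogen and chin late anagen lie at nearly equal class II levels, 7.31 and 7.36, and at C1q levels of 3.91 and 6.07.

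Ear skin carried more of these transcripts than dorsal skin labelled competent telogen. It was higher for 35 members and lower for none (44.7% of all genes higher, 14.6% lower), with a median of 1.44 against 0.33 for all genes. Spi1 read 27.98 and 25.4 FPKM in ear against 3.82 and 2.56 in dorsal skin, a difference of 2.74 ± 0.22 (log2, SE; limma adjusted p = 0.000123), and Trem2 read 14.0 and 14.3 against 1.6 and 1.72 FPKM, a difference of 2.51 ± 0.23 (adjusted p = 0.000208). Cd207 was at 17.6 and 14.5 against 2.49 and 1.9 FPKM (2.42 ± 0.15, adjusted p = 4.86e-05), Csf1r at 37.2 and 31.8 against 6.21 and 5.8 FPKM and Ctss at 144.5 and 147 against 28.5 and 28.4 FPKM. Ear and dorsal libraries did not overlap for any of these. The class II genes had a median of 2.15 and the C1q chains a median of 0.76, C1qb being at 152 and 144 against 86.1 and 88.5 FPKM. Folr2 was at 25.9 and 24.6 against 24.7 and 28.3 FPKM, with a difference of -0.06 ± 0.13, and Aif1, Cd52, Cx3cr1 and Fcgr1 were also not called.

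The cartilage/muscle complex, by contrast, was lower than dorsal skin for 26 members and higher for 5 (28.3% and 42.8% of all genes). Cd52 was at 8.35, 10.0 and 4.39 FPKM in the complex (-2.08 ± 0.29, limma adjusted p = 0.000935) and Fcer1g at 17.5, 21.9 and 21.2 (-1.92 ± 0.11, adjusted p = 1.49e-05). Mertk went the other way, at 10.9, 10.6 and 10.9 FPKM against 1.58 and 1.8 in dorsal and 2.7 and 2.53 in ear skin, which made the complex its highest tissue (2.13 ± 0.08 over dorsal skin, adjusted p = 1.91e-06). The other 4 above dorsal skin were Trem2 (1.06 ± 0.21), Cd14 (0.86 ± 0.13), Irf8 (0.64 ± 0.22) and Csf1r (0.35 ± 0.11). For Csf1r the difference was -0.005 under scaling by the median of ratios, so that its direction is not settled. Lyz2 was at 149, 175 and 157 FPKM in the complex and 171 and 172 in dorsal skin and was not called.

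Ear skin exceeded the complex for 38 members and lay below it for 1, Mertk (38.5% and 28% of all genes), with Irf8 not called. The largest differences were those of Cd207, at 3.97 ± 0.14 (limma adjusted p = 1.79e-06), and H2-Ab1, at 3.7 ± 0.06 (adjusted p = 8.92e-08). Cd207 was at 0.19, 0 and 0.07 FPKM in the complex, near the limit of the table's decimals, where keratins made up 0.0175% to 0.0202% of FPKM. H2-Ab1 was at 58.5, 64.4 and 58.6 FPKM in the complex and at 817 and 782 in ear skin.

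**Figure D5:**
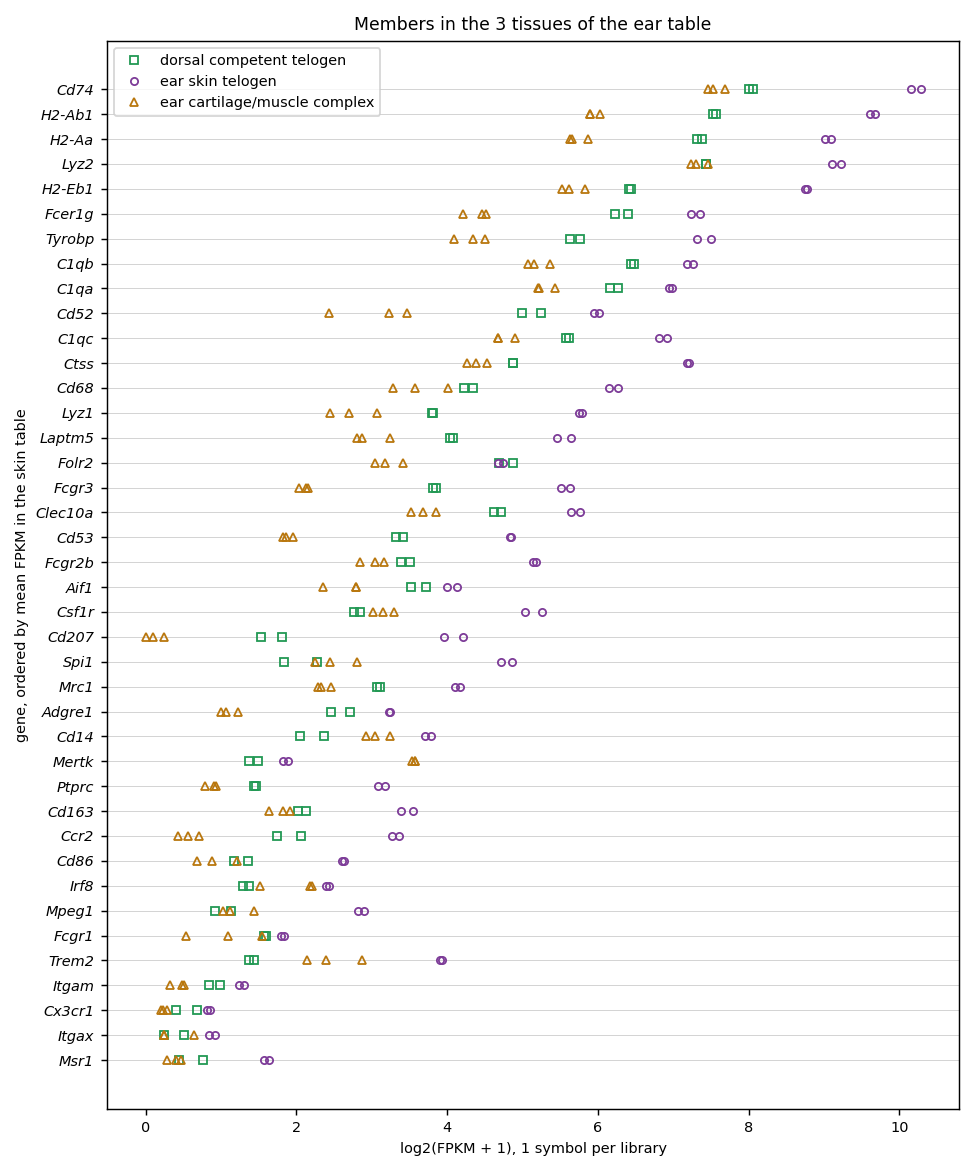
Log2(FPKM + 1) of the 40 members in the 2 ear skin, 3 cartilage/muscle complex and 2 dorsal competent telogen libraries, 1 point per library. Ear skin is the highest tissue for most members, Folr2 is level between ear and dorsal skin at 24.6 to 28.3 FPKM, and Mertk is highest in the complex at 10.6 to 10.9 FPKM.

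Other genes of the same cells were read from lists of related genes, against 27.2% of all genes higher and 7.61% lower in chin than in dorsal refractory telogen. At that stage, chin skin exceeded dorsal skin for 13 of 13 complement genes outside C1q, led by Cfd (4.53 ± 0.24) and Cfp (3.05 ± 0.22), for 11 of 13 dendritic cell genes, led by Cd83 (2.16 ± 0.15) and Batf3 (1.99 ± 0.23), and for 11 of 15 resident dermal macrophage genes, led by Retnla (4.5 ± 0.24) and Cd209f (3.41 ± 0.29), with 1 of the last lower. Cfd is also an adipocyte gene, and Itgam stands in both the complement list and the set. Class II loading and transactivation genes were higher in 8 of 14 and lower in 1, led by H2-DMa (1.52 ± 0.18) and H2-DMb1 (1.34 ± 0.19), which exchange peptides on class II molecules. Monocyte and inflammatory genes were higher in 7 of 12 and lower in 1, led by Plac8 (2.31 ± 0.17) and Nr4a1 (1.67 ± 0.18), and pattern recognition receptors were higher in 3 of 9, a share near that of all genes, with Clec7a (1.27 ± 0.15) and Tlr2 (0.92 ± 0.16) the largest. Both ligands of Csf1r were higher, Csf1 by 1.15 ± 0.16 and Il34 by 0.51 ± 0.18. All these values are log2 differences with SE, called by limma over all genes.

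At competent telogen 27.4% of all genes were higher and 9.29% lower in chin than in dorsal skin. Chin was lower for 12 of 13 complement genes and higher for none, led by C3 (-2.35 ± 0.21) and Cfd (-2.25 ± 0.27). It was lower for 11 and higher for 2 of 15 resident dermal macrophage genes, led by Cd209f (-2.61 ± 0.32) and Retnla (-2.28 ± 0.27). Class II loading genes gave 2 higher and 4 lower of 14, with Ctsb (-1.42 ± 0.15) and Rfxap (1.02 ± 0.37) the largest, and monocyte genes 3 higher and 5 lower of 12, with Plac8 (-2.72 ± 0.19) and Nr4a1 (1.85 ± 0.2). Dendritic cell genes gave 2 higher and 3 lower of 13, with Bst2 (-1.19 ± 0.17) and Fscn1 (-0.91 ± 0.25), and pattern recognition receptors 3 higher and none lower of 9, with Nod1 (0.93 ± 0.14) and Myd88 (0.51 ± 0.1). Il34, the ligand that keratinocytes make and Langerhans cells need, was 1.77 ± 0.2 higher in chin, where Cd207 was also higher, and Csf1 was not called. In ear skin Il34 exceeded dorsal skin by 2.23 ± 0.08 and Csf1 by 1.11 ± 0.1. Whether Il34 and Cd207 are linked was not tested in either comparison.

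Markers of several other cells were higher where the members were. At refractory telogen, where 27.2% of all genes were higher and 7.61% lower in chin than in dorsal skin, differences were called higher for 11 of 12 adipocyte genes (median 2.74), all 12 skeletal muscle genes (1.86), all 10 fibroblast genes (1.22), 7 of 10 mast cell genes (0.93), 8 of 10 endothelial genes (0.61), 4 of 13 T cell genes (0.44), 3 of 5 B cell genes (0.43), 4 of 6 erythrocyte genes (1.39, with 1 lower), 3 of 8 melanocyte genes (0.3, with 1 lower), 1 of 7 neutrophil genes (0.29) and 1 of 10 keratinocyte genes (-0.09, with 2 lower), and lower for 13 of 14 genes of the growing hair follicle (-1.36). The T cell, melanocyte, neutrophil and keratinocyte counts lay near or under the share of all genes. The largest differences in these lists were those of Cfd (4.53 ± 0.24) and Cidec (4.42 ± 0.26) of adipocytes, Ckm (2.51 ± 0.35) and Acta1 (2.28 ± 0.31) of muscle, Dpt (2.95 ± 0.24) and Dcn (1.83 ± 0.16) of fibroblasts and the proteases Cma1 (3.13 ± 0.2) and Tpsb2 (3.11 ± 0.22) of mast cells. Smaller ones were those of Cldn5 (1.03 ± 0.15) and Emcn (0.81 ± 0.17) of endothelium, Cd2 (1.18 ± 0.23) and Trac (0.81 ± 0.24) of T cells, Ighm (2.16 ± 0.2) and Igkc (1.37 ± 0.35) of B cells, the globins Hba-a2 (1.71 ± 0.24) and Hba-a1 (1.54 ± 0.24), Pmel (1.36 ± 0.24) and Dct (1.08 ± 0.16) of melanocytes, Retnlg (1.21 ± 0.24) of neutrophils, and Krt15 (1.01 ± 0.16) and Sfn (-0.86 ± 0.14) of keratinocytes. In the follicle list Padi3 (-2.13 ± 0.38) and Krt73 (-1.76 ± 0.18) fell furthest, and of the cell cycle list Aurkb alone was called, at 0.46 ± 0.17. Adipocyte genes summed to 5774 to 5979 FPKM in chin, 5513 to 7470 in ventral and 1350 to 1369 in dorsal refractory telogen, and muscle genes to 13439 to 21612 FPKM in chin. Neutrophil markers did not follow: Ly6g was at 0 in every library of these 3 groups, and the list summed to 33.9 to 64.5 FPKM in chin and 47.8 to 49.5 in dorsal skin. Over the 43 libraries the mean of the members correlated with the mean of the adipocyte list at r = 0.86, of the mast cell list at 0.87, of the fibroblast list at 0.82, of the T cell list at 0.52, of the muscle list at 0.41 and of the neutrophil list at 0.05. In late anagen muscle genes summed to 6079 to 6347 FPKM in chin and 508 to 539 in dorsal skin. In competent telogen they summed to 586 to 626 in chin and 6329 to 6417 in dorsal skin. In ventral competent telogen they summed to 275 to 304 FPKM. The part of these cells in the differences of the members was not tested.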

How the data were processed

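RNA of whole skin from 18 body site and stage groups and of 2 ear tissues was sequenced by SMART-seq2 with Nextera tagmentation and paired-end reads. The authors aligned reads to mm10 with GENCODE annotation, quantified them with RSEM 1.2.25, applied a batch-effect correction without naming batches, and deposited FPKM per gene with 2 decimals. No counts were at hand. FPKM is relative, so that very abundant transcripts such as keratins lower all others. The tables hold values alone, with no comparisons by the authors.

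The pseudocount was 1, so that every value was analysed as log2(FPKM + 1). limma 3.58.1 (R 4.3.3) with a variance trend and empirical Bayes was fitted over all 43 skin libraries and, separately, over the 7 libraries of the ear table, after a filter of at least 0.5 FPKM in at least 2 libraries. p-values were adjusted by Benjamini-Hochberg over all genes tested, and an adjusted p under 0.05 was called. A gene was called higher or lower from the contrast of 2 groups in the same fit. Errors of differences are SE, from the spread pooled over all groups of a fit, and those of means SD. The fits were tested on simulated data. Groups came from the labels. A fold on this scale understates the change of genes near 1 FPKM.

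The members, their roles and the lists of related genes and of other cells were chosen with earlier results of these data known. Every member is named, and values are given for the 2 most abundant of each role (all where a role has 3 or fewer), for Adgre1, Cd68, Csf1r, Itgam and Cd207, for the 2 largest differences in each direction of a comparison, and for members that went against the rest. Of other lists, the 2 genes with the largest difference in the comparison are named. Further values were chosen after they were seen.

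Promoters of 28 members were read from a RefSeq table on GRCm38.p6. Alternatives covered the pseudocount, the filter, 3 other scalings, the variance trend, a replicate block, fits within a stage or site, each library left out, and, added after seeing the data, removal of a GC content trend, removal of keratin genes and removal of doubtful groups.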

Additional observations from a re-analysis of the deposited data

Results flagged for a closer look

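The difference between body sites depended on the stage. By a limma F-test of the interaction of site and stage, adjusted over all genes, 39 of the 40 members were called, where 73.3% of all genes were. The 6 steps around the cycle were tested in the same way for a difference among the sites. The step from competent telogen to early anagen gave 32 members (54% of all genes) and that from early to mid anagen 34 (37.7%). The step from mid to late anagen gave 34 (26.6%) and that from late anagen to catagen 27 (37.5%). The step from catagen to refractory telogen gave 37 (45.4%) and that from refractory to competent telogen 39 (49.1%). From mid to late anagen 29 members rose in chin skin and 23 fell in ventral skin, with C1qb moving by 2.53 ± 0.25 in chin and by -1.53 ± 0.23 in ventral skin (log2, SE). Between the telogen stages, C1qb was lower at competent telogen in chin skin, by -2.63 ± 0.23, and higher in dorsal skin, by 2.88 ± 0.25. Groups of 2 and 3 libraries were too small for a search for single outlying libraries.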

How the results depend on the processing

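Numbers of members that differed count any difference, and many lie near the limit of 40, so that they say little of counts by direction. Counts by direction, given at the end of the paragraph, moved further in several comparisons. Of the 143 recalculated numbers of members that differed, not counting single libraries left out, 141 stayed within 1.5 times the reported number. The exceptions were mid anagen, with 17 members in place of 30 when only that stage was fitted, in which fewer libraries estimate the spread, and dorsal skin, with 23 in place of 39 without competent telogen and early anagen, which leaves fewer stages to differ. Leaving out 1 library at a time gave 36 to 39 members at competent telogen, 19 to 33 at early anagen, 26 to 32 at mid anagen, 23 to 31 at late anagen, 7 to 16 at catagen and 37 to 39 at refractory telogen, 39 to 40 among chin, 38 to 39 among ventral and 37 to 40 among dorsal stages, 38 to 40 for the interaction, and 33 to 36, 27 to 32 and 37 to 38 for ear against dorsal skin, complex against dorsal skin and ear against complex. The catagen value of 7 came without dorsal catagen replicate 1 and that of 16 without chin refractory telogen replicate 2. Of the 15247 recalculated differences of single members, 360 lost and 267 gained a call, and 1 reversed: Csf1r between complex and dorsal skin was -0.005 (limma adjusted p = 0.973) under the median of ratios and 0.35 as reported. Of 7720 with a library left out, 597 lost and 82 gained a call. Leaving out chin refractory telogen replicate 2, the lowest of its group for the C1q and class II genes, moved numbers elsewhere through the shared estimate of the spread: in dorsal skin from 6 to 12 higher at mid to late anagen, from 7 to 11 lower at late anagen to catagen and from 6 to 10 lower at competent telogen to early anagen, in chin skin from 3 to 8 lower at early to mid anagen, and from 9 to 14 higher in ventral competent against refractory telogen. The 6 members that rose from mid to late anagen in dorsal skin were 3 without dorsal late anagen replicate 1 or 2, the 7 that rose on to catagen were 4 without dorsal catagen replicate 1, the 5 that rose from late anagen to catagen in ventral skin were 2 without ventral late anagen replicate 2 or ventral catagen replicate 1, and the 9 higher at ventral competent telogen were 5 without ventral refractory telogen replicate 2. The 3 that fell from early to mid anagen in chin skin were 10 without chin mid anagen replicate 1 and 1 under the median of ratios. The 6 lower in ventral than in dorsal catagen were 2 without ventral catagen replicate 1, and the 5 higher in the ear complex than in dorsal skin were 3 under the median of ratios, without keratin genes, and without complex replicate 1 or 2 or either dorsal library. Between chin and ventral early anagen, 7 higher and 5 lower became 3 and 8 under the median of ratios. With only the stage fitted, ventral above dorsal refractory telogen went from 31 to 11 and chin above ventral from 33 to 12. Chin below ventral mid anagen went from 22 to 8 in such a fit. Ventral above dorsal competent telogen went from 20 to 8 under the median of ratios. Other counts held, such as the 37 higher in chin than in dorsal refractory telogen, which kept to 32 to 37.

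Libraries with the same replicate number did not deviate together: over 37 pairs of the same stage, the correlation of deviations ran from -0.0841 to 0.0963, and the numbers were not taken as pairs. With the number as a replicate block 39, 27, 31, 28, 12 and 38 members differed at the 6 stages in cycle order, 40, 39 and 38 among chin, ventral and dorsal stages, and 38 for the interaction. For the complex against dorsal skin, which share 2 numbers, the replicate block gave 28 members in place of 31, from a fit of those 5 libraries alone. Of the single members 17 lost and 10 gained a call with the block. For ear skin, no paired analysis was possible because its columns carry numbers that do not match those of its samples.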

Other observations

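Ctsd and Ctsb, proteases of the lysosome, were higher in chin than in dorsal catagen by 2.12 ± 0.13 and 1.34 ± 0.14 (log2, SE; limma adjusted p = 2.23e-13 and 4.39e-09), and the class II loading list, which holds both, gave 6 higher and 1 lower of 14, where 20% of all genes were higher and 21.3% lower. The protease Ctss, a member, differed by -0.01 ± 0.19 and was not called. The loading list summed to 783 to 794 FPKM in dorsal catagen, and to 1864 to 1893 FPKM in chin catagen.

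In the ear table the monocyte and inflammatory list gave 5 higher and 4 lower of 12 in ear skin against the complex, where 38.5% of all genes were higher and 28% lower. Nr4a1 and Thbs1, which other cells also express, were lower in ear skin by -5.72 ± 0.08 and -3.52 ± 0.07 (log2, SE; limma adjusted p = 5.58e-08 and 1.99e-07), while the chemokine receptor Ccr2, a member, was higher, at 8.96 FPKM in ear skin and 0.49 in the complex on average. The T cell list summed to 112 to 117 FPKM in ear skin and 5.1 to 6.96 in the complex.

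FPKM with 2 decimals limits the lowest members: Trem2, Fcgr1 and Msr1 were listed at 0 in at least 1 skin library. Groups of 2 leave 1 degree of freedom each, so that the spread is shared over all groups.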
